A study of Danio rerio with 20 samples.

Results

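Described here are 7 zebrafish genes of neutrophil granules and leukocytes, mpx, lyz, lect2l, ncf1, s1pr4, srgn and lcp1, measured in cardiomyocyte preparations of wild-type and kit mutant hearts before and after injury. They were chosen by name, as a list of symbols looked up among the 14781 gene symbols of the deposited matrix, where all 7 were found. The list was drawn up with earlier results of these data known. All 7 also passed the filter on low values (CPM, reads scaled to a library total of 1000000, at 1 or above in 2 or more libraries), which kept 10914 genes.

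Cells came from adult fish aged 4 to 6 months, either wild type or kit mutant, which carried the alleles kita(w34b2) and kitb(sa15356). Hearts were untouched or were collected 2, 5, 7 or 14 days after about 20% of the ventricle was resected at the apex (days post injury, dpi). Each of the 10 groups of genotype and time had 2 libraries, and each library held cardiomyocytes isolated from 8 pooled ventricles. The series asks about a defect in proliferation of kit mutant cardiomyocytes. Both alleles are mutations of the whole fish, carried by its leukocytes as well as its cardiomyocytes.

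Libraries held 14.6 to 31.7 M assigned reads. Levels below are scaled CPM, in which a factor per library evens out composition, and differences are log2 of (scaled CPM + 1) ± SE from limma, 2 libraries a group, called at a Benjamini-Hochberg adjusted p under 0.05 over 10914 genes. The libraries of 3 mutant groups (untouched, 2 dpi and 7 dpi) were nearly alike, with a mean chi-square per gene of 1.95 to 3.73, where sampling of reads alone gives about 1 and the other 7 groups had 13.9 to 46.6. Since the labels do not say whether libraries of a group are separate preparations, p-values measure only the spread among these libraries, and counts are also given with those 3 pairs averaged where that changes them. The mutant 2 dpi pair is labelled lane 7 and every other library lane 8. Each comparison of that pair with another group thus also compares lanes, and the part of the lane was not tested. The labels name no sequencing run. In lane 8 some sample numbers occur in both genotypes, and whether the genotypes shared a run is not given in the sources used here. In the wild-type 2 dpi group the 2 libraries differed widely. The mutated genes do not check the genotype labels, since kita had 6 to 27 reads in wild-type and 7 to 29 in mutant libraries, and kitb 0 to 8 and 0 to 7.

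Cardiomyocyte markers were high throughout. The summed level of 8 cardiomyocyte genes lay between 28700 and 70146 scaled CPM in the 20 libraries. Transcripts of other cells were present as well, and the 7 genes are among them. Of leukocyte markers, runx1 had 0 reads in every library, npsn, a neutrophil protease gene, at most 4, cd8a of T cells at most 5, and tyrobp, a signalling adaptor of myeloid cells, at most 12. No row was found under the symbols ptprc, cxcr1, cxcr2 and cd79a.

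Neutrophils are phagocytes that reach a wound within hours, and in the zebrafish heart they enter the injured ventricle early and later leave it or die, while macrophages persist. They carry granules loaded with enzymes, and an NADPH oxidase assembled at the membrane makes the reactive oxygen of the respiratory burst. In zebrafish, mpx encodes the peroxidase of the granules and lyz a lysozyme C that cuts bacterial cell walls. lect2l belongs to the family of leukocyte cell-derived chemotaxin genes, whose products are secreted. ncf1 encodes p47phox, the organizing cytosolic subunit of the oxidase, and is used by macrophages too. s1pr4 encodes a receptor for sphingosine-1-phosphate, which in mammals is found mainly on leukocytes. srgn encodes serglycin, the proteoglycan core that in mammals holds proteins in storage granules and is also made by endothelial and other cells. lcp1 encodes L-plastin, an actin-bundling protein of leukocytes in general.

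Before injury all 7 genes were higher in kit mutant than in wild-type libraries, against 18.9% of all tested genes higher in that comparison, and their median difference was 4.26, where that of all genes was -0.03. The 5 that differed most did so by 8.29-fold to 43.5-fold. In bulk RNA, more cells of a type and more RNA per cell cannot be told apart, which holds for each difference that follows.

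Of the granule enzymes, mpx was at 2.41 and 1.90 scaled CPM in the untouched wild-type libraries and at 62.1 and 64.0 in the untouched mutant ones. This is a 29.3-fold higher mean and a difference of 4.35 ± 0.36 (adjusted p = 2.49e-07). lyz was at 5.73 and 4.42 scaled CPM in wild type and at 122 and 113 in mutants, a difference of 4.29 ± 0.36 (adjusted p = 2.98e-07). The lower untouched mutant library lay above the highest of the other 18 libraries by 5.41-fold for mpx and by 4.84-fold for lyz, so that for neither gene did any injured group of either genotype come near this level.

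The secreted factor gene lect2l had 4.07 and 3.50 scaled CPM in untouched wild type and 93.7 and 87.3 in untouched mutants (4.26 ± 0.37, adjusted p = 3.78e-07). Its relatives lect2.1, lect2.2 and lect2.3 are annotated in zebrafish, and reads that a relative shares could have been counted for either, which leaves the level of lect2l uncertain in that respect. The receptor gene s1pr4 showed the widest gap, with 1.32 and 0.720 scaled CPM in wild type and 42.3 and 46.4 in mutants (4.50 ± 0.22, adjusted p = 1.70e-09). The mutant mean was 43.5-fold the wild-type mean, and the lower mutant library was 13.7-fold above the highest of the other 18. Outside the untouched mutant pair s1pr4 stayed at or below 3.08 scaled CPM, with as few as 11 reads in a library.

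The oxidase subunit gene ncf1 was at 84.3 and 59.5 scaled CPM in untouched wild type and at 604 and 589 in untouched mutants (3.06 ± 0.48, adjusted p = 0.000113). lcp1 was at 21.1 and 18.8 scaled CPM and at 81.5 and 78.1, a 4.00-fold higher mean (1.95 ± 0.24, adjusted p = 1.16e-05). srgn was the least changed, at 352 and 326 against 538 and 529 scaled CPM (0.65 ± 0.10, adjusted p = 7.78e-05). All 7 calls were kept without any 1 of the 20 libraries and with the near-identical pairs averaged. As the untouched mutant libraries were nearly alike, neither setting can show whether their levels would recur in another preparation.

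**Figure D1:**
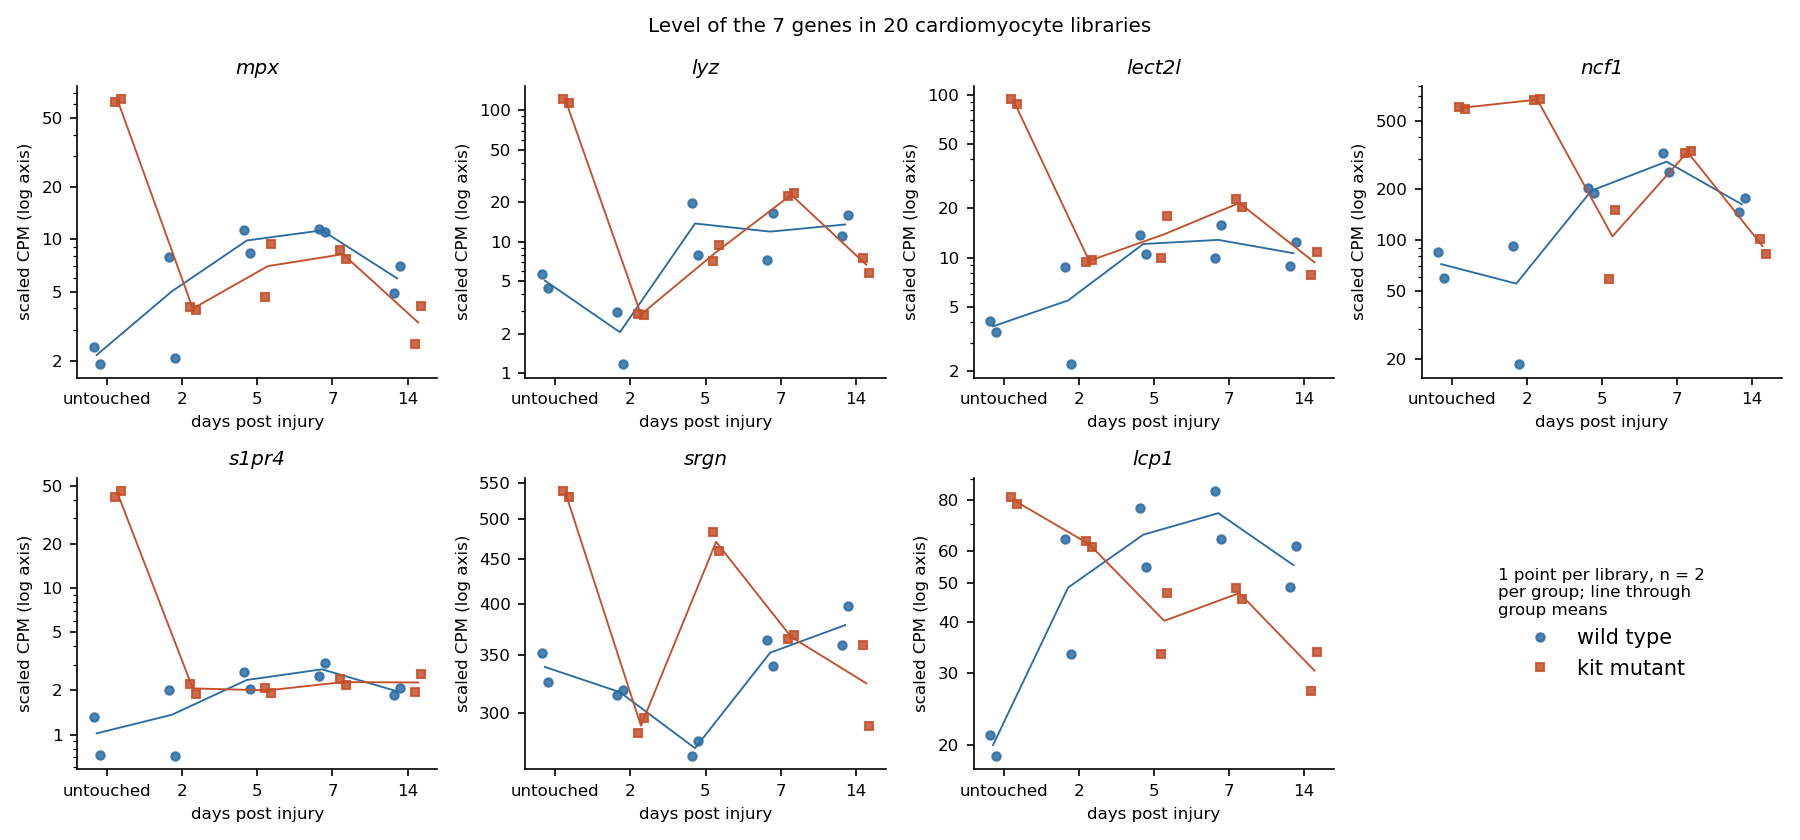
Scaled CPM (log axes that differ between panels) of the 7 genes against days post injury, with 1 point per library and lines through group means, 2 libraries a group. For mpx, lyz, lect2l, s1pr4 and srgn the untouched mutant pair is the highest of the 10 groups, whereas ncf1 is highest in mutants at 2 dpi (663 and 669 scaled CPM). The mean of lcp1 is also highest in untouched mutants (79.8 scaled CPM), but its range overlaps that of wild type at 7 dpi (mean 74.2).

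Lists of oxidase genes and of granule and secreted proteins moved with them. These lists, like those below, were also drawn up with earlier results of these data known. Untouched mutants were higher for 5 of 5 tested genes of an NADPH oxidase list (median 2.95). These include cybb, the catalytic subunit, at 9.79 to 11.6 scaled CPM in wild type and 191 to 193 in mutants (4.05), the GTPase rac2 (2.95) and cyba (2.14). Of 12 tested genes of the list of other granule and secreted proteins 11 were higher (median 2.73). Among them were mmp13a, a collagenase, at 3.21 to 3.40 against 234 to 247 scaled CPM (5.81), and scpp8 (2.78). The list is broader than its name, since it also holds alox5ap (2.68), the activating protein of leukotriene synthesis. All 4 tested genes of a list of chemotaxis and growth factor receptors were higher (median 2.47). The granulocyte colony-stimulating factor receptor gene csf3r was at 2.26 to 2.35 and 41.7 to 42.1 scaled CPM (3.70), and il6r differed by 2.89.

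Genes of signals that attract or sustain neutrophils were higher for 10 of 11 tested (median 1.75), for example csf3b (3.35) and the lipoxygenase gene alox5a (2.16). Among myeloid transcription factor genes 5 of 9 tested were higher and 1 was lower, with the neutrophil-lineage factor gene cebp1 at 3.09 and spi1b, which encodes Pu.1, at 2.32. Other genes found across leukocytes were higher for 10 of 11 tested (median 1.91), with fcer1gl (2.52) and coro1a (2.33) as examples. The sphingosine-1-phosphate list did not follow s1pr4, since of its 6 other tested genes 1 was higher and 3 were lower (s1pr5a -0.96, s1pr1 -0.66, s1pr2 -0.65, sgpl1 0.51), and with the pairs averaged 0 were higher and 2 lower, or 2 and 2 without untouched wild-type replicate 2. Of the other plastin genes, pls3 was at -0.23 and lost its call with CPM as deposited or with the pairs averaged.

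Markers of other cells also differed between the untouched groups, in both directions, where 21.2% of all tested genes were lower in mutants. Macrophage genes were higher for 5 of 12 tested (median 0.52), and without either wild-type 2 dpi library for 8 of 12. Their summed level was 426 to 427 scaled CPM in wild type and 700 to 712 in mutants, with mfap4 at 3.26 and csf1ra at 1.88, while mpeg1.1 (0.33), c1qa (0.19) and c1qb (-0.02) were not called. Erythroid genes were lower for 4 of 6 tested (median -1.65), with a summed level of 7456 to 7685 scaled CPM in wild type and 2295 to 2339 in mutants, and with the pairs averaged 2 were called. Of 7 epicardial and fibroblast genes 6 were lower and 1 higher (median -0.98). Of 8 cardiomyocyte genes 1 was higher and 0 were lower (median -0.16), and 3 were lower with CPM as deposited or 2 without either wild-type 2 dpi library. Of endothelial genes 1 of 6 was higher and 1 lower, and the short lists of T and NK cells (2 of 4 higher), mast cells and eosinophils (2 of 2 higher, cpa5 at 2.14 and gata2a at 0.36), thrombocytes (1 of 4 higher), B cells (0 of 1) and exocrine pancreas (1 of 2 lower) held too few genes to describe. The T and NK cell count fell to 0 with the pairs averaged or without untouched wild-type replicate 1. The part of these other cells in the differences of the 7 genes was not tested.

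After injury most of the 7 genes were called higher in wild type at 5, 7 and 14 dpi. The 2 dpi libraries differed widely, so they do not date the start of a rise. Against untouched wild type, 1 of the 7 genes was higher and 1 lower at 2 dpi, 6 were higher and 1 lower at 5 dpi, 6 were higher at 7 dpi and 4 at 14 dpi. Over all tested genes 26.4% were higher and 25.2% lower at 2 dpi, 15.9% higher and 17.0% lower at 5 dpi, 17.5% higher at 7 dpi and 13.2% higher at 14 dpi. The median difference of the 7 genes was 0.19, 1.44, 1.50 and 1.17 at these times, with medians of all genes near 0. In all, 19 of 28 pairs of gene and time were called, but 10 without untouched wild-type replicate 2 and 11 with the near-identical mutant pairs averaged. All groups share 1 estimate of spread per gene, to which those mutant pairs add little spread. Averaging them takes this out and leaves fewer degrees of freedom. With wild-type libraries alone 10 were called.

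mpx reached 11.3 and 8.36 scaled CPM at 5 dpi (1.77 ± 0.36, adjusted p = 0.00163) and 11.5 and 11.0 at 7 dpi (1.96 ± 0.36, adjusted p = 0.00051), above both untouched libraries. At 2 dpi it was at 7.93 and 2.08 scaled CPM, with 1 library above the untouched pair and 1 between them, and was not called. At 14 dpi it was at 4.89 and 7.02 (1.13 ± 0.36, adjusted p = 0.0315), and this call was lost without any 1 of the 4 libraries compared (adjusted p up to 0.199).

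lyz took another course in wild type. It was at 2.94 and 1.17 scaled CPM at 2 dpi, below both untouched libraries (-1.05 ± 0.36, adjusted p = 0.0243), although the call was lost without untouched replicate 1 or 2 dpi replicate 2 (adjusted p up to 0.229). It was then at 19.6 and 7.96 scaled CPM at 5 dpi (1.17, adjusted p = 0.0216), 7.27 and 16.7 at 7 dpi (1.00, adjusted p = 0.0426) and 11.1 and 16.0 at 14 dpi (1.25, adjusted p = 0.0196). All these later libraries were above both untouched ones. The calls at 5 and 14 dpi were lost without untouched replicate 2, without 5 dpi replicate 1 (adjusted p up to 0.319) or without 14 dpi replicate 2 (up to 0.156), and that at 7 dpi without any of 9 libraries (up to 0.423).

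lect2l was at 13.8 and 10.4 scaled CPM at 5 dpi (1.45, adjusted p = 0.00705), 9.89 and 15.8 at 7 dpi (1.50, adjusted p = 0.00457) and 8.81 and 12.5 at 14 dpi (1.27, adjusted p = 0.0195). All 6 libraries were above the untouched pair, though 1 left-out library ended each call, namely untouched replicate 2 or 5 dpi replicate 1 at 5 dpi (adjusted p up to 0.0689), 7 dpi replicate 2 at 7 dpi (0.0557), and either untouched library or 14 dpi replicate 2 at 14 dpi (up to 0.148). s1pr4 was at 2.69 and 2.03 scaled CPM at 5 dpi (0.74, adjusted p = 0.018) and 2.50 and 3.08 at 7 dpi (0.92, adjusted p = 0.00418), which is a small rise in a gene of few reads. Its call at 5 dpi was lost without untouched replicate 2 or 5 dpi replicate 1 (adjusted p up to 0.179) and that at 7 dpi without untouched replicate 2 (0.0633).

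ncf1 was at 201 and 187 scaled CPM at 5 dpi (1.44 ± 0.48, adjusted p = 0.0307) and 325 and 250 at 7 dpi (1.99 ± 0.48, adjusted p = 0.00407). The call at 7 dpi was kept without any 1 library, whereas that at 5 dpi was lost without untouched replicate 2 or either 5 dpi library (adjusted p up to 0.182). lcp1 was the 1 member called at all 4 times, at 64.1 and 33.4 scaled CPM at 2 dpi (1.18, adjusted p = 0.00073), 76.6 and 54.7 at 5 dpi (1.65), 84.3 and 64.2 at 7 dpi (1.83 ± 0.24, adjusted p = 2.35e-05) and 49.0 and 61.7 at 14 dpi (1.42). Each of those libraries was above both untouched ones, and each call was kept without any 1 library. srgn was at 268 and 279 scaled CPM at 5 dpi (-0.31 ± 0.10, adjusted p = 0.0264), a call lost with CPM as deposited (adjusted p = 0.377), with quantile normalization (0.253), and without untouched replicate 1 or either 5 dpi library (up to 0.14).

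At 7 dpi in wild type the leukocyte lists were higher together, and the macrophage list was among them. Higher were 5 of 5 NADPH oxidase genes (median 2.40, with ncf4 at 2.54 and rac2 at 2.40). So were 7 of 12 genes of the granule and secreted protein list (median 0.94, with adam8a at 2.32, alox5ap at 2.01 and lygl1 at 1.89). Of 4 receptor genes 3 were higher (cxcr4b 2.07, csf3r 1.86, il6r 0.84), and ltb4r was not called at 0.39. Pan-leukocyte genes were higher for 11 of 11 (median 1.93). Of 12 macrophage genes 12 were higher (median 2.25), with mpeg1.1, a pore-forming protein gene of macrophages, at 2.80, c1qa at 2.67 and the invariant chain gene cd74b at 2.17. The summed macrophage level was 1416 to 1871 scaled CPM against 426 to 427 in untouched wild type. Epicardial genes were also higher, 7 of 7 (median 1.76), and cardiomyocyte genes were lower for 6 of 8 (median -0.69), where 17.3% of all genes were lower, a count that fell to 3 of 8 without untouched replicate 2 or 7 dpi replicate 1.

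**Figure D2:**
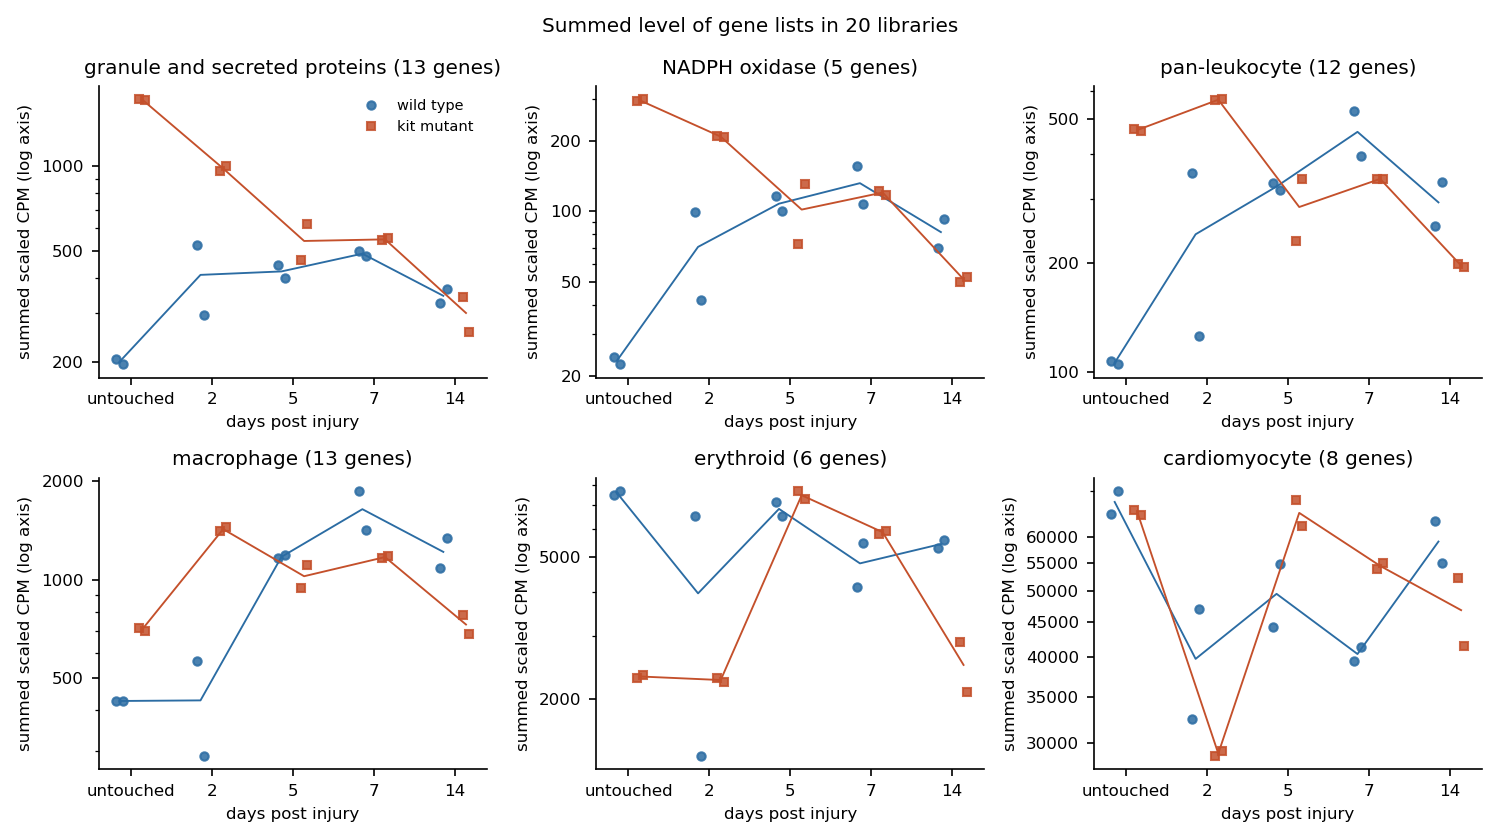
Summed scaled CPM (log axes that differ between panels) of 6 gene lists against days post injury, 1 point per library, 2 libraries a group, lines through group means. The granule and NADPH oxidase sums are highest in the untouched mutant pair (1725 to 1734 and 295 to 301 scaled CPM), and the macrophage sum is not.

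In kit mutants the genes fell from their untouched level. Against untouched mutants, 5 of the 7 were lower at 2 dpi, 6 at 5 dpi, 6 at 7 dpi and 7 at 14 dpi, and none was higher at any of these times in limma's test (0 at an unadjusted p under 0.05, and 0 with edgeR). Of all tested genes 24.9%, 25.3%, 5.74% and 18.2% were lower at these times. The median difference of the 7 genes was -3.12, -2.67, -2.02 and -3.16. With the near-identical pairs averaged, 5, 6, 2 and 7 were lower, and at 7 dpi those kept were mpx and s1pr4. All these comparisons share the untouched mutant pair.

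At 2 dpi both granule enzyme genes were lower, as were lect2l, s1pr4 and srgn. mpx was at 4.08 and 3.89 scaled CPM (-3.68 ± 0.36, adjusted p = 3.80e-07), and lyz at 2.84 and 2.76 (-4.96 ± 0.36, adjusted p = 1.62e-08). lect2l was at 9.45 and 9.62 (-3.12 ± 0.37, adjusted p = 2.86e-06) and s1pr4 at 2.23 and 1.90 (-3.89 ± 0.22, adjusted p = 1.31e-09). All 4 genes were far below both untouched libraries. srgn was at 285 and 296 scaled CPM, a smaller difference (-0.88 ± 0.10, adjusted p = 1.79e-06).

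ncf1 and lcp1 were not called at 2 dpi. ncf1 was at 663 and 669 scaled CPM, above both untouched mutant libraries (0.16 ± 0.48, adjusted p = 0.806), and lcp1 at 63.4 and 61.2, below both (-0.35 ± 0.24, adjusted p = 0.235). Of the 5 genes of the oxidase list, which does not hold ncf1, cybb was lower (-0.97, adjusted p = 0.0456) while ncf4 (0.45), rac2 (-0.24) and cyba (-0.34) were not called, and with the pairs averaged 0 were; with CPM as deposited 1 was higher and 0 lower. The summed level of these 5 genes was 208 to 209 scaled CPM, below the 295 to 301 of untouched mutants. The granule and secreted protein list had 7 of 12 genes lower and 2 higher (median -0.96), with mmp13a at -4.12, mmp9 at -2.99 and illr4 at -2.61. Of the 12 macrophage genes 10 were higher and 0 lower (median 1.58; havcr1 2.96, mpeg1.1 2.78, c1qb 2.74), where 27.5% of all tested genes were higher, or 7 with the pairs averaged. Their summed level was 1408 to 1449 scaled CPM at 2 dpi against 700 to 712 untouched, and ncf1, which macrophages also use, was high in both groups, while the part of macrophage transcripts in its level was not tested. Cardiomyocyte genes were lower at that time for 7 of 8 (median -1.01), with a summed level of 28700 to 29155 scaled CPM.

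ncf1 also differed between genotypes at 2 dpi. It was at 91.9 and 18.5 scaled CPM in wild type at 2 dpi and 663 and 669 in mutants (3.97 ± 0.48, adjusted p = 4.53e-06). The call was kept without any 1 library, with the difference between 2.84 and 5.09. Because the mutant pair was nearly alike and alone in lane 7, leaving out 1 library tests neither another mutant preparation nor the lane. lect2l was called too (0.92 ± 0.37, adjusted p = 0.0433), but its groups nearly met, at 8.70 and 2.21 against 9.45 and 9.62 scaled CPM, and the call was lost without any of 9 libraries (adjusted p up to 0.766), with edgeR, and with the pairs averaged. Thus 2 of 7 genes were higher and 0 lower in mutants at 2 dpi, where 57.7% of all tested genes differed in either direction.

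At later times few of the 7 genes were called between genotypes. At 5 dpi srgn was higher in mutants, at 482 and 459 against 268 and 279 scaled CPM (0.78 ± 0.10, adjusted p = 3.15e-05), and lcp1 was lower, at 33.5 and 47.2 against 76.6 and 54.7 (-0.69 ± 0.24, adjusted p = 0.0327), where 38.6% of all genes differed. At 7 dpi limma called 0 of 7, where 27.2% of all genes differed. In limma's test 2 of 7 had an unadjusted p under 0.05, and edgeR called 0. These uncalled differences at 7 dpi went in both directions. For example, lyz was at 22.2 and 23.4 scaled CPM in mutants and 7.27 and 16.7 in wild type. mpx was at 8.66 and 7.75 in mutants and 11.5 and 11.0 in wild type. At 14 dpi lcp1 was again lower in mutants, at 27.1 and 33.8 against 49.0 and 61.7 scaled CPM (-0.84 ± 0.24, adjusted p = 0.0145), where 31.0% of all genes differed. The lcp1 call at 5 dpi was lost without replicate 1 of either genotype (adjusted p up to 0.278) and that at 14 dpi without wild-type replicate 2 or mutant replicate 1 (up to 0.116). Over the 5 times 12 of 35 pairs of gene and time were called, and 21 or 19 without wild-type 2 dpi replicate 1 or 2.

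Later in the mutant course the granule genes stayed below both untouched mutant libraries. mpx was at 4.62 and 9.39 scaled CPM at 5 dpi, 8.66 and 7.75 at 7 dpi and 2.49 and 4.14 at 14 dpi, with differences from untouched mutants of -3.07, -2.80 and -3.92. lyz was at 7.21 and 9.49, 22.2 and 23.4, and 7.59 and 5.80 scaled CPM (-3.67, -2.31 and -3.95), so that its highest level after injury in mutants was at 7 dpi. lect2l was also highest at 7 dpi, with 9.93 and 17.9 at 5 dpi, 22.8 and 20.5 at 7 dpi and 7.82 and 10.9 at 14 dpi (-2.67, -2.02 and -3.16).

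s1pr4 stayed at 1.92 to 2.60 scaled CPM from 5 to 14 dpi, with differences from untouched mutants of -3.91, -3.79 and -3.80 and no peak. ncf1 was at 58.9 and 150 scaled CPM at 5 dpi (-2.65, adjusted p = 0.000269), 324 and 331 at 7 dpi (not called, -0.86, adjusted p = 0.262) and 101 and 82.1 at 14 dpi (-2.70, adjusted p = 0.000407). lcp1 was lower at 5 dpi (-0.99, adjusted p = 0.00278), at 7 dpi with 48.7 and 45.7 scaled CPM (-0.75, adjusted p = 0.0479) and at 14 dpi (-1.37, adjusted p = 0.000352), though the call at 5 dpi was lost without mutant 5 dpi replicate 1 (0.0512) and that at 7 dpi without any of 10 libraries (up to 0.215). srgn, at 482 and 459 scaled CPM at 5 dpi, was not called there (-0.18, adjusted p = 0.141) and was lower at 7 dpi, with 365 and 369 (-0.54), and at 14 dpi, with 359 and 290 (-0.72).

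At 14 dpi the related lists were also below untouched mutants. Lower were 5 of 5 NADPH oxidase genes (median -1.98) and 4 of 4 receptor genes (median -2.02). So were 12 of 12 genes of the granule and secreted protein list (median -2.21). Of 11 pan-leukocyte genes 8 were lower and 1 higher (median -0.97), but 3 lower with the pairs averaged, 4 with CPM as deposited and 4 or 5 without any 1 of the untouched or 14 dpi mutant libraries. Of 12 macrophage genes 3 were higher and 2 lower (median 0.22), where 21.3% of all tested genes were higher, or 5 and 2 without either wild-type 2 dpi library.

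**Figure D3:**
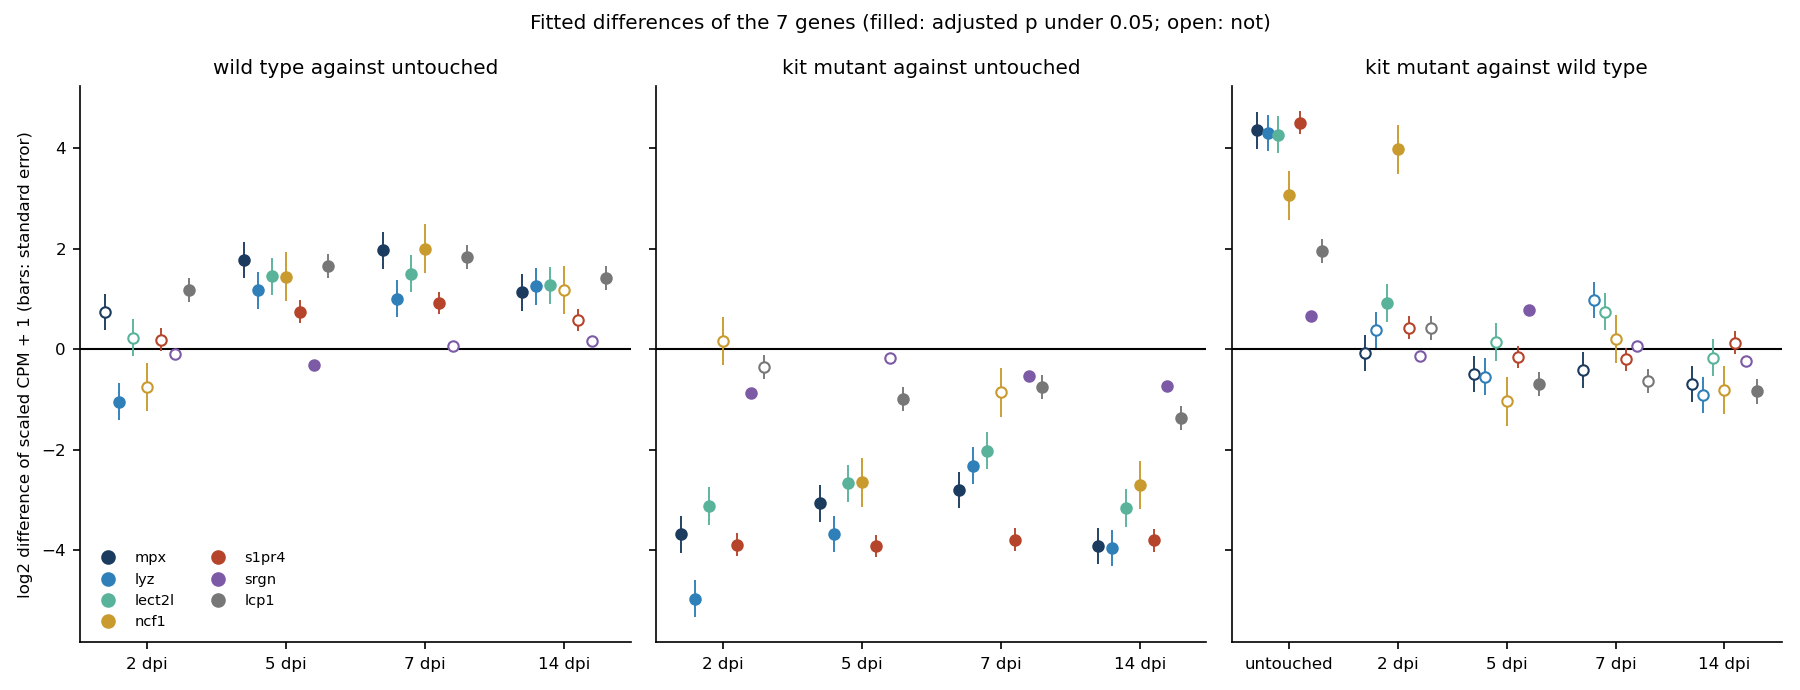
Log2 differences of (scaled CPM + 1) of the 7 genes, with SE from limma, for each time against untouched in both genotypes and for mutant against wild type at each time. In untouched hearts all 7 differences between genotypes are above 0 (0.65 to 4.50), and at 7 dpi none was called.

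Between successive times, 16 of 42 pairs of gene and step were called. From 2 to 5 dpi in wild type 4 of 7 genes rose and 0 fell, where 45.4% of all genes changed in either direction. Those that rose were lyz (2.22, adjusted p = 0.00014), ncf1 (2.20, adjusted p = 0.00157), lect2l (1.22, adjusted p = 0.0131) and mpx (1.03, adjusted p = 0.0285). The mpx and lect2l calls were lost without 2 dpi replicate 2 or 5 dpi replicate 1 (adjusted p up to 0.52 and 0.284). From 5 to 7 dpi srgn was called (0.36, adjusted p = 0.0312), against 10.7% of all genes changed, and its call was lost without any of 6 libraries (up to 0.186). From 7 to 14 dpi limma called 0 of 7 in wild type, where 17.8% of all genes changed; 1 had an unadjusted p under 0.05, and edgeR called 0.

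In mutants from 2 to 5 dpi lyz (1.29, adjusted p = 0.00575) and srgn (0.69, adjusted p = 1.50e-05) rose and ncf1 (-2.81, adjusted p = 9.36e-05) and lcp1 (-0.63, adjusted p = 0.0306) fell, where 62.6% of all genes changed. The lcp1 call was lost without either 2 dpi library or 5 dpi replicate 1 (adjusted p up to 0.266). From 5 to 7 dpi lyz (1.36, adjusted p = 0.00698) and ncf1 (1.79, adjusted p = 0.00734) rose and srgn fell (-0.36, adjusted p = 0.00848), against 42.9% of all genes, and all 3 calls were lost without 5 dpi replicate 1 (up to 0.135), that of srgn also without 7 dpi replicate 1. From 7 to 14 dpi ncf1 (-1.84, adjusted p = 0.0123), lyz (-1.64, adjusted p = 0.00446), lect2l (-1.14, adjusted p = 0.0351) and mpx (-1.12, adjusted p = 0.0356) fell and 0 of 7 rose, against 23.3% of all genes changed in either direction. Of these the lyz call was kept without any 1 library, and the other 3 were lost without either 7 dpi library or 1 of the 14 dpi libraries (adjusted p up to 0.205 for mpx, 0.176 for lect2l and 0.0733 for ncf1). With the near-identical pairs averaged, 5 of all 42 pairs of gene and step were called in place of 16.

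The response to injury differed between genotypes for most of the 7 genes. Subtracting the wild-type from the mutant difference to untouched gave a lower value in mutants for 6 genes at 2 dpi, 6 at 5 dpi, 7 at 7 dpi and 7 at 14 dpi, where 20.3%, 17.2%, 9.57% and 15.7% of all genes were lower. Medians over the 7 genes were -3.34, -4.12, -3.31 and -4.37. The exceptions were ncf1 at 2 dpi (0.91, not called) and srgn at 5 dpi (0.13, not called, and -0.065 with CPM as deposited). Since these differences contain the untouched groups at all 4 times, they carry the difference already present before injury.

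Ratios to lcp1 of the same library set the other genes against a general leukocyte transcript. lcp1 was itself higher in untouched mutants and after injury in wild type, so a ratio can fall without a fall of the gene. With the ratio in untouched wild type set to 1 on average, the untouched mutant libraries had ratios of 10.3 and 11.8 for s1pr4, 7.08 and 7.62 for mpx, 5.89 and 5.73 for lyz, 6.07 and 5.90 for lect2l, 2.07 and 2.11 for ncf1 and 0.388 and 0.398 for srgn. At 2 dpi in mutants that of ncf1 was 2.92 and 3.06, while those of mpx (0.598 and 0.591) and s1pr4 (0.700 and 0.617) were below 1. The ratio of lyz at 2 dpi was 0.181 and 0.139 in wild type and 0.177 and 0.178 in mutants. Thus lyz was low against lcp1 at that time in both genotypes, in all 4 libraries, although the 2 wild-type libraries differed widely in level. This was not particular to lyz. Ratios of srgn (0.264 to 0.563), s1pr4 (0.426 to 0.700) and lect2l (0.350 to 0.831) were also below 1 in all 4 libraries. The exceptions were mpx, at 1.15 in wild-type replicate 1, and ncf1, above 1 in both mutant libraries.

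**Figure D4:**
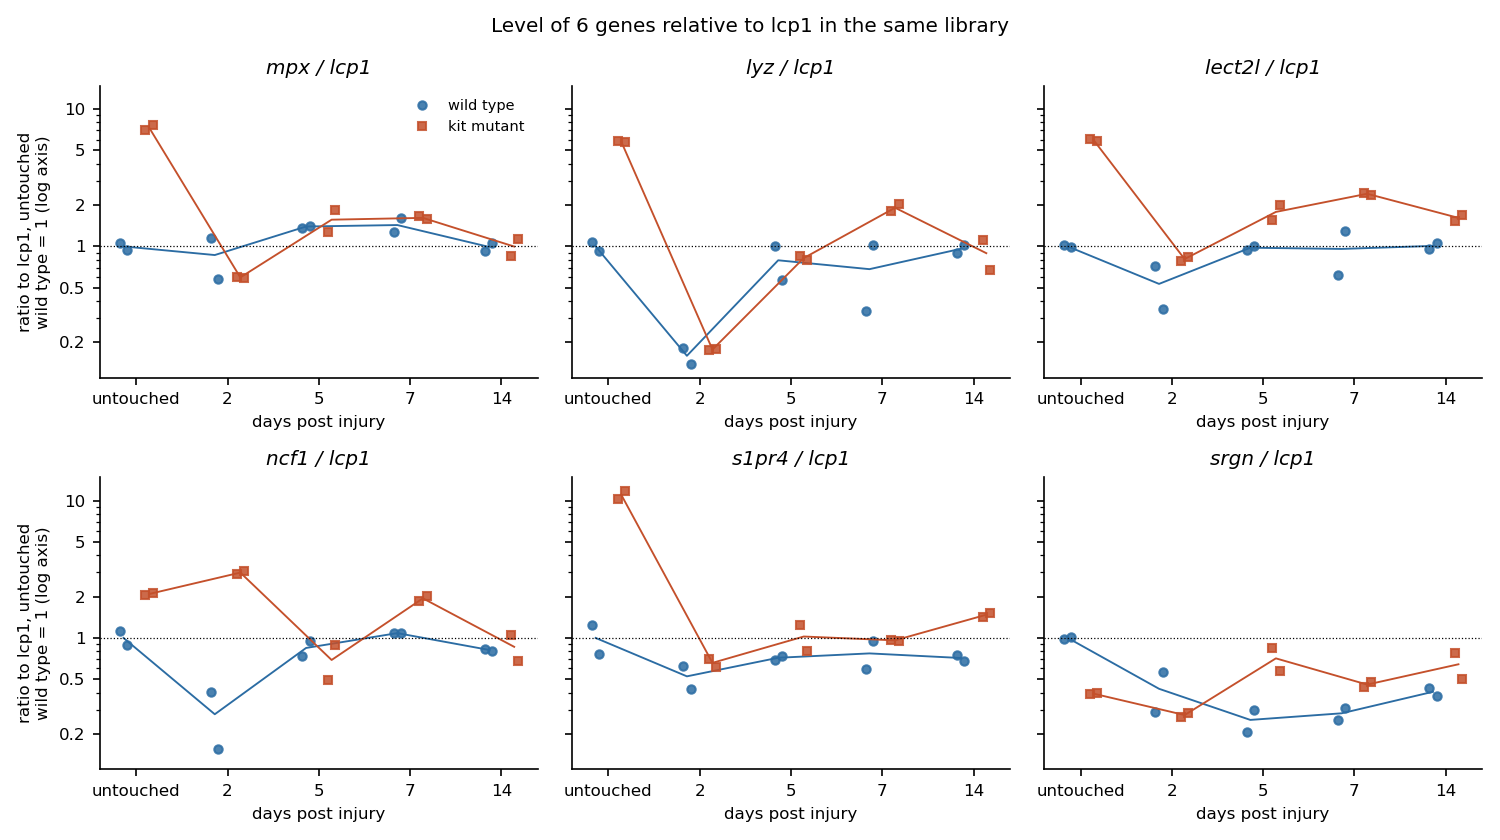
Ratio of each of 6 genes to lcp1 in the same library (log axis), relative to the mean of untouched wild type, against days post injury, 1 point per library. In the untouched mutant pair the ratios of mpx, lyz, lect2l and s1pr4 lie between 5.73 and 11.8, and the ratio of lyz is at 0.139 to 0.181 in the 4 libraries of 2 dpi.

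Most pairs of the 7 genes were less correlated without the untouched mutant libraries. Across 20 libraries the correlation of log2 values was 0.93 for mpx with lect2l, 0.91 for lyz with lect2l, 0.87 for mpx with lyz and 0.90 for lect2l with s1pr4, and in the 18 libraries without that pair it was 0.80, 0.76, 0.63 and 0.84. srgn followed the others less, with 0.59 for mpx in 20 libraries and 0.08 in 18, and with lcp1 0.13 and -0.20. ncf1 and lcp1 had 0.71 and 0.65. Higher in the 18 libraries were mpx with lcp1 (0.74 and 0.81), s1pr4 with lcp1 (0.54 and 0.68) and ncf1 with s1pr4 (0.57 and 0.63). These values describe libraries that share groups and lane labels.

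The genes whose pattern was closest to the mean of the 7 standardized genes over 20 libraries were scinlb (0.958), sema4e (0.940), ssuh2.3 (0.924) and mmp9 (0.922). Without the untouched mutant pair the closest were alox5ap (0.934), rgs13 (0.904) and cd74b (0.904), and scinlb was at 0.830. Closest to ncf1 over 20 libraries were gpr84 (0.966), tfec (0.963) and il1fma (0.960). Closest to lcp1 over 20 libraries were coro1a (0.951), rac2 (0.933) and ptpn6 (0.929). Without the untouched mutant pair they were coro1a (0.943), c1qb of the macrophage list (0.942) and ptpn6 (0.933). Over 20 libraries LOC100003647 (0.929) was closest to s1pr4, and paip2b (0.883) to srgn.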

How the data were processed

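The authors deposited 1 matrix of CPM, with a row per gene symbol and a column per library (20), made with FastQC and featureCounts on danRer10, per the submitters' processing notes. The aligner is not named, and the annotation likewise not given in the sources used here. Whole reads were recovered from the CPM steps (100% whole within 0.1 read). A set of 3 lines without gene values was left out. The 14 dpi samples carry another day in 1 label field, and 14 was used. CPM were divided by median-ratio factors, filtered (CPM at 1 or above in 2 or more libraries), and log2(value + 1) was fitted with limma-trend (limma 3.58.1, R 4.3.3) with a mean for each of 10 groups (10 residual degrees of freedom), in 23 contrasts, two-sided, adjusted by Benjamini-Hochberg over 10914 genes at a threshold of 0.05. Fold changes on this scale understate those of low genes. An exact permutation test of 2 against 2 libraries cannot reach that threshold.

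The members, the tests and the 18 gene lists (127 of 176 symbols found) were chosen with earlier results of these data known. Named were the 7 members, up to 4 genes of a list by adjusted p, markers near 0 and the genes closest in pattern. Alternatives were unscaled CPM, quantile normalization, a filter of 5 or none, a pseudocount of 0.25, 1 genotype alone, a replicate block, near-identical pairs averaged, edgeR 4.0.16 on recovered reads, and each library left out. Closest genes over 18 libraries and list counts under alternatives were added after the data were seen. The fit was tried on simulated data with the same spread in every library. Such data hold no near-identical or widely differing pairs, so the trial does not cover those. Counting error only is covered by read numbers. No sequences are printed, since no genome of the build was used here. The values of 1 listed gene are not reported here.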

Additional observations from a re-analysis of the deposited data

Results flagged for a closer look

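The response to injury, each time against untouched, differed between mutant and wild type by the interaction test in limma for 26 of 28 pairs of gene and time, always lower in mutants. Values are log2 differences of the responses with adjusted p. All of them contain the untouched groups, where the 7 genes were higher in mutants.

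For mpx they were -4.42 at 2 dpi (1.11e-05), -4.84 at 5 dpi (9.02e-06), -4.76 at 7 dpi (2.01e-05) and -5.05 at 14 dpi (3.64e-06). For lyz they were -3.92 (3.27e-05), -4.84 (9.23e-06), -3.31 (0.000378) and -5.20 (2.88e-06) at the same times. For lect2l they were -3.34 (0.000129), -4.12 (4.06e-05), -3.52 (0.000261) and -4.43 (1.37e-05). For s1pr4 they were -4.07 (3.32e-07), -4.66 (1.34e-07), -4.71 (2.61e-07) and -4.37 (2.62e-07). For lcp1 they were -1.53 (0.00217), -2.64 (4.64e-05), -2.58 (9.86e-05) and -2.79 (1.84e-05). For ncf1 they were -4.09 at 5 dpi (0.000382), -2.86 at 7 dpi (0.0082) and -3.87 at 14 dpi (0.000409). For srgn they were -0.78 at 2 dpi (0.000409), -0.59 at 7 dpi (0.00764) and -0.88 at 14 dpi (0.000188).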

How the results depend on the processing

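Of 28 pairs of gene and time, 24 were called in the mutant course under the chosen settings and 20 to 25 under the others, and 26 for a difference of responses (24 to 27). The wild-type course had 19 of 28, 10 with wild-type libraries alone, 11 with near-identical pairs averaged and 10 to 23 with 1 library left out. Steps between successive times had 16 of 42, 5 with those pairs averaged and 12 to 23 with 1 library left out. Comparisons between genotypes had 12 of 35, and 11 to 21 with 1 library left out. With a replicate block the counts were 19 (wild type), 23 (mutant), 16 (steps), 11 (genotypes) and 26 (responses). The labels do not say whether the replicate numbers pair samples. Same-numbered deviations correlated at -0.293 to 0.143 over 45 pairs of groups, which cannot settle this with 2 libraries a group. With CPM as deposited the median difference of all genes lay between -0.17 and 0.32 in comparisons with untouched or between genotypes. With scaled CPM it lay between -0.04 and 0.05. Uncalled differences changed sign in some settings. With 1 library left out, wild type at 2 dpi against untouched ranged from -0.025 to 1.51 for mpx, -0.57 to 1.03 for lect2l, -1.87 to 0.38 for ncf1 and -0.22 to 0.60 for s1pr4, and at 7 dpi from -0.00033 to 0.11 for srgn. Mutant against wild type at 2 dpi ranged from -0.84 to 0.69 for mpx (0.00049 with quantile normalization), -0.053 to 0.80 for lyz and -0.042 to 0.88 for lcp1, and the ncf1 difference of responses at 2 dpi from -0.22 to 2.03. For srgn, CPM as deposited and quantile normalization gave 0.21 and 0.18 for wild type at 2 dpi, and -0.065 and -0.068 for the difference of responses at 5 dpi. The causes were not tested. Depth limits s1pr4 and lyz most, with as few as 11 and 18 reads in a library.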
